A study of Mus musculus with 18 samples.

Results

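Bulk RNA-seq of mouse brain tissue lying beside experimental metastases was compared between a melanoma and a lung cancer model across all genes. The 12 libraries were chosen by their cell line labels from the 18 of the series. The melanoma group held the 6 libraries made after injection of B16-F10_BrM4 cells, library numbers 1 to 6, and the lung group the 6 made after injection of 482N1 cells, numbers 7 to 11 and 13. B16-F10_BrM4 is a brain-seeking derivative of a pigmented mouse melanoma line, and 482N1 is labelled only as a cell line of the lung cancer model. Every mouse was of the genotype WT and was killed 10 days after receiving 40000 cells, and all labels give brain as the tissue. Each model rests on 1 cell line, so the line and the tumour type cannot be told apart, and no tumour-free brain was among the samples. The labels used here give no sex, age, strain or batch of the mice and do not say whether each library came from its own mouse, so that p-values measure the spread between libraries. The breast cancer model (EO771_BrM3 cells, 6 libraries) shared 1 fit with these 12, and its levels are given beside a few genes without a test.

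Tissue around a brain metastasis holds neurons, astrocytes, oligodendrocytes, microglia and vessel cells, together with leukocytes that enter from the blood and tumour cells that grow along vessels into the margin. Astrocytes and microglia react to a growing tumour with cytokines, complement, proteases and matrix proteins, and tumour cells release ligands of the TGF-beta, EGF and interleukin families that act on both. Melanocytes and melanoma cells make pigment in melanosomes under the transcription factor MITF, while carcinoma cells keep keratins, cell junctions and the transcription factors of the epithelium they came from. In bulk tissue, fewer cells of a type and less RNA per cell cannot be told apart.

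Totals were 10669355 to 13396710 counts in the melanoma and 12070005 to 14533877 in the lung libraries, so that 3 counts amounted to 0.206 to 0.281 CPM (counts scaled to a common library total). The first principal component held 61.2% of the variance of log2 CPM among the 12 libraries and separated the models. Melanoma library 3 was poor in long transcripts (log2 CPM changed by -0.261 per doubling of length, against -0.124 to 0.192 in the other 11), and melanoma 1 and lung 8 and 10 stood apart from their own groups on immune genes. A part of the results that turn on these libraries is given with and without them. Summed over fixed markers, neuronal genes stood at 2728 to 5527 CPM in melanoma and 3326 to 4679.5 CPM in lung libraries, oligodendrocyte genes at 3860.1 to 5512 CPM in melanoma and 3772 to 6021 CPM in lung libraries and choroid plexus and ependymal genes at 389 to 1029 CPM in melanoma and 419 to 868 CPM in lung libraries, ranges that overlap and hold no called gene. Astrocyte markers stood at 649 to 994 CPM in melanoma and 931 to 1361 CPM in lung libraries, with 2 of 4 lower, and endothelial markers at 84.0 to 178 CPM in melanoma and 162 to 199 CPM in lung libraries, with 1 of 4 lower. Of 30 reactive astrocyte genes 23 fell (76.7%, against 14.7% of all genes) and none rose. That list also holds Emp1, an epithelial membrane protein, so its count does not describe astrocytes alone. The microglial markers P2ry12, Tmem119 and Csf1r summed to 72.3 to 179 CPM in melanoma and 326 to 441 CPM in lung libraries, and all 3 fell. The 5 melanocyte markers stood at 3446 to 21949 CPM in melanoma and 1.49 to 3.99 CPM in lung libraries and the 5 markers of simple epithelium at 4.78 to 5.78 CPM in melanoma and 309 to 1316 CPM in lung libraries, so both tumours' own kinds of gene were in the tissue. Which cells made the RNA of any other gene was not tested. Y-linked genes were read in all 12 libraries, at 85.7 to 139 CPM in melanoma and 120.2 to 143 CPM in lung libraries. None of the breast libraries held reads of them. Xist stood at 57.9 to 158 CPM in breast, 0 to 0.465 CPM in melanoma and 0 to 0.332 CPM in lung libraries. The sex of the tissue thus seems to differ between the breast libraries and the 12. Breast libraries 18 and 19 held only 7366250 and 7432159 counts and were also poor in long transcripts (-0.279 and -0.223 on the measure given above). Rankings of the 3 models below carry these differences, whose part was not tested.

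The models differed in 3978 of the 17174 genes tested (23.2%) at an adjusted p under 0.05 in edgeR's quasi-likelihood test. In melanoma libraries 1461 genes rose (8.51%) and 2517 fell (14.7%), both against lung, and the same direction holds for every fold change below. Values are CPM on library sizes scaled by the trimmed mean of M-values (TMM), and errors of fold changes are standard errors (SE). The falls were also the larger changes: 1580 genes fell and 519 rose by over 2-fold, and 419 fell and 117 rose by over 8-fold. The genes that fell held 13.7% of the CPM of the lung and 5.96% of the melanoma libraries, and the genes that rose 11.7% of melanoma and 6.22% of lung CPM. At the other end, the 95% interval of the change lay within 2-fold for 12522 genes (72.9%), 11436 of them among the 13196 not called. Counts over a gene list are over the members that passed the filter on low counts, such as 22 of 23 pigment, 21 of 24 Fc receptor and 27 of 39 chemokine genes listed, and members neither risen nor fallen did not pass the test. Every list count below is to be read beside the 8.51% risen and 14.7% fallen over all genes. Without overlap between the 6 and 6 values, 805 genes (4.69%) stood higher and 1653 (9.63%) lower in melanoma.

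**Figure D1:**
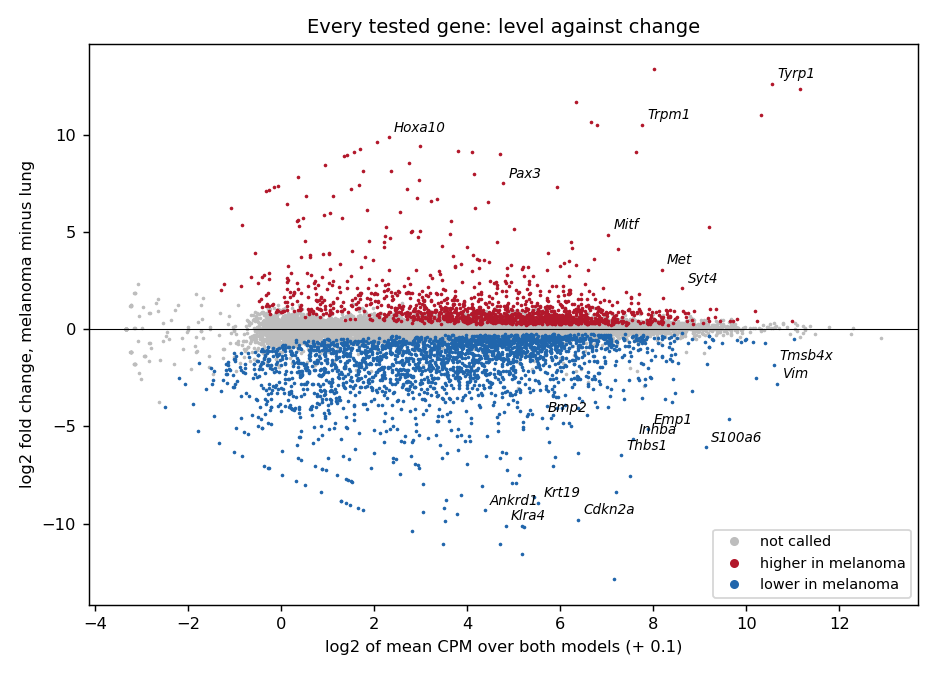
Change against level for every tested gene. The horizontal axis gives log2 of the mean CPM over both models and the vertical axis the log2 fold change, melanoma minus lung, with 1461 called genes higher (red), 2517 lower (blue) and the others grey. Most abundant genes lie near 0, and the blue cloud reaches farther from 0 at middle levels.

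The largest rises included pigment genes, of which 18 of 22 tested rose and none fell (median log2 fold change 5.73, against 0.022 over all genes). MITF is known to bind E-boxes before the start of such genes. The core CATGTG (in either direction, so also CACATG) was found within the 250 bases before the start in 8 of the 13 risen pigment genes that have an entry in the RefSeq promoter table, or 61.5%, against 9.47% of the 12258 tested genes with an entry. It was found in 20.2% of the promoters of all genes that rose over 4-fold and in 13.4% of those that fell over 4-fold. Tyr, Tyrp1 and Dct share the 10 letters GTCATGTGCT around the core, part of the motif known as the M-box. These letters were taken as the longest run that the 3 promoters have in common there. They were found in 8 of the 12258, these 3 included, in 3 of the genes that rose over 4-fold and in 1 that fell over 4-fold. Stretches of 80 bases around the core are shown for 5 of the 8, with the core in capitals, because in these 5 it reads CATGTG on the gene's own strand. They were read from RefSeq on GRCm38.p6, on the plus strand for tyrosinase-related protein 1 (chr4:80834130-80834209) and the melastatin channel (chr7:64153657-64153736), and on the minus strand for tyrosinase (chr7:87493513-87493592), dopachrome tautomerase (chr14:118052354-118052433) and the transcriptional coactivator Cited1 (chrX:102251943-102252022).
Tyr: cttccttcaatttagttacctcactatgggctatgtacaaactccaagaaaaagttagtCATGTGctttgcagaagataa
Tyrp1: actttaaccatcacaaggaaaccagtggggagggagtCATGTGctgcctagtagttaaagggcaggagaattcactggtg
Dct: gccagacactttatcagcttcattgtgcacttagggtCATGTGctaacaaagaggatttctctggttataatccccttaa
Trpm1: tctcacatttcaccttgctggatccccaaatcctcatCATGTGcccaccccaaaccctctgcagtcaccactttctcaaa
Cited1: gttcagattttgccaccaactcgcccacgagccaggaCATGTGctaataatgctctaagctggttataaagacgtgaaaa
The 10 shared letters lie in the first 3 of these stretches, from which they were taken. A match describes letters in the reference and does not show binding in these tissues.

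Mitf was at 71.5 to 481 CPM (median 252) in the melanoma and 7.49 to 9.96 CPM (median 8.89) in the lung libraries (log2 fold change 4.86 ± 0.40, adjusted p = 2.54e-08), and the melanoma libraries were all higher. Trpm1, a cation channel of melanocytes, was at 156 to 816 CPM (median 411) against 0.136 to 0.409 CPM (median 0.310) (log2 fold change 10.53 ± 0.50, adjusted p = 1.61e-11). Rab27a and Rab38, small GTPases that move and mature melanosomes, reached medians of 144 and 118 CPM against 15.4 and 7.89 (log2 fold change 3.32 ± 0.33, adjusted p = 3.16e-07 and log2 fold change 4.19 ± 0.44, adjusted p = 5.29e-07). Rab38 differed between the other models as well, with 0.449 to 0.789 CPM (median 0.621) in breast libraries. The pigment genes named here set the melanoma libraries apart from every lung library.

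Among neural crest and melanocyte regulators 8 of 22 rose and 3 fell. Pax3, which specifies melanoblasts, stood at 19.07 to 81.4 CPM (median 59.3) against 0.136 to 0.463 CPM (median 0.273) (log2 fold change 7.52 ± 0.44, adjusted p = 2.5e-10). Tbx2, a T-box repressor of senescence genes, stood at 30.5 to 113 CPM (median 54.9) against 1.17 to 2.33 CPM (median 1.67) (log2 fold change 5.15 ± 0.37, adjusted p = 3.1e-09). The melanoma libraries were all higher for both. Sox10, which oligodendrocytes share with melanocytes, was read in both models, at 99.6 to 219.8 CPM (median 156) against 31.2 to 46.5 CPM (median 39.9) (log2 fold change 1.97 ± 0.22, adjusted p = 1.56e-06). Met, the receptor of hepatocyte growth factor, ranged over 239.6 to 829.8 CPM (median 471) against 42.0 to 82.7 CPM (median 61.2) (log2 fold change 3.06 ± 0.30, adjusted p = 1.98e-07). The 3 members that fell were Hmga2, Tfec and Snai2. Hmga2, an embryonic chromatin protein, was at 0.495 to 4.07 CPM (median 1.65) against 117 to 207 CPM (median 169) (log2 fold change -6.37 ± 0.38, adjusted p = 3.31e-10), with 108 to 182 CPM (median 147) in breast libraries.

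Genes outside the pigment list also set the melanoma libraries apart. Bace2, a protease that cleaves the pigment amyloid protein PMEL, stood at 46.2 to 270.4 CPM (median 139) against 4.88 to 7.36 CPM (median 6.71) (log2 fold change 4.48 ± 0.36, adjusted p = 1.82e-08). Car14, a membrane carbonic anhydrase, was at 58.5 to 226 CPM (median 133) against 9.90 to 13.2 CPM (median 11.96) (log2 fold change 3.50 ± 0.29, adjusted p = 2.52e-08). Cdk2, a kinase of the G1 to S transition, was at 120.0 to 470.0 CPM (median 295) against 10.9 to 22.4 CPM (median 16.3) (log2 fold change 4.14 ± 0.34, adjusted p = 2.76e-08). Cdk2 lies on the strand opposite Pmel on chromosome 10, and the annotation has them share 837 bases. The strand setting of the counting is not given in the sources used here, so reads of Pmel among those of Cdk2 cannot be told apart. Brca1, of DNA repair by homologous recombination, was at 46.0 to 248 CPM (median 116) against 9.004 to 14.6 CPM (median 11.6) (log2 fold change 3.40 ± 0.33, adjusted p = 1.76e-07). Chsy3, which builds chondroitin sulfate chains, was at 68.0 to 186 CPM (median 113) against 9.42 to 16.2 CPM (median 11.2) (log2 fold change 3.24 ± 0.26, adjusted p = 2.12e-08), and the groups of 6 did not overlap for any of these 5 genes.

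Of 8 Hox genes tested, 5 rose and none fell, and the rest of the 39 listed were too low to test, so that the tested ones are those read in at least 1 model. A member without lung reads passed the filter only through the melanoma or breast libraries, and for it a fall was not possible. The count is therefore a description of which Hox genes were read. Hox genes give body segments their identity and have little expression in the forebrain. Hoxa10 was at 3.88 to 21.6 CPM (median 8.23) in melanoma with no read in the lung libraries, which puts it at least 259.7-fold higher with a floor of 3 counts over the lung group. Hoxa11 was at 1.21 to 11.8 CPM (median 4.37), also with no lung read (at least 130.4-fold higher). Hoxa10 was read in the breast libraries too, at 2.25 to 6.99 CPM (median 3.22), while Hoxa11 stayed at 0 to 0.140 CPM (median 0) there. Tbx4, a limb and lung T-box factor, was at 5.86 to 18.6 CPM (median 11.8) against 0 to 0.470 CPM (median 0.119) (log2 fold change 6.01 ± 0.46, adjusted p = 7.94e-09), and Fkbp6, a germ cell protein of the piRNA pathway, at 19.7 to 97.3 CPM (median 50.4) against 0 to 0.271 CPM (median 0.0409) (log2 fold change 9.02 ± 0.61, adjusted p = 1.55e-09). For these 4 genes every melanoma library was above every lung library. The fold change of Fkbp6 was 9.81 on the log2 scale without lung 9, and that of Tbx4 6.62 without lung 11.

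Syt4, a vesicle protein of neurons and endocrine cells, was at 391 to 987 CPM (median 637) against 108 to 186 CPM (median 151) (log2 fold change 2.11 ± 0.21, adjusted p = 2.9e-07), and in breast libraries at 117 to 149 CPM (median 137). Every melanoma library was above every lung library for Syt4, while the summed neuronal markers overlapped between the models, as given above.

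Metabolic lists moved in both directions. Of 27 genes of serine and one-carbon metabolism and the amino acid stress response, 13 rose (48.1%, against 8.51% of all genes) and only Cebpb fell (median log2 fold change 0.546). The mean level of this list was 1.46 log2 units above the mean of the 12 libraries in melanoma 3. It was -0.38 in melanoma 6, inside the lung range of -0.44 to -0.15. Mthfd2, the mitochondrial folate enzyme, was at 30.0 to 253 CPM (median 74.9) against 14.4 to 31.0 CPM (median 21.2) (log2 fold change 2.20 ± 0.38, adjusted p = 0.00017), and the groups overlapped narrowly. Aldh1l2, which oxidises formyl-tetrahydrofolate in mitochondria, was at 9.58 to 116 CPM (median 23.2) against 6.87 to 14.8 CPM (median 10.3) (log2 fold change 1.84 ± 0.44, adjusted p = 0.00399). Trib3, a pseudokinase induced by ATF4, was at 3.96 to 149 CPM (median 12.4) against 1.24 to 5.48 CPM (median 2.63) (log2 fold change 3.58 ± 0.73, adjusted p = 0.00102). The highest value of all 3 came from melanoma library 3, the one poor in long transcripts, and all 3 remained called without it, though at smaller log2 fold changes of 2.07 for Trib3 and 1.08 for Aldh1l2. In breast libraries Trib3 stood at 8.46 to 21.5 CPM (median 12.6), within the melanoma range.

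Of 25 genes of the tricarboxylic acid cycle 10 rose and none fell, with a median log2 fold change of 0.305. Suclg2, a subunit of succinyl-CoA ligase, was at 31.98 to 87.3 CPM (median 51.9) against 18.2 to 26.1 CPM (median 21.5) (log2 fold change 1.31 ± 0.22, adjusted p = 0.000147). Ogdh, of the oxoglutarate dehydrogenase complex, was at 332 to 485 CPM (median 387) against 224 to 293 CPM (median 249.6) (log2 fold change 0.65 ± 0.14, adjusted p = 0.00131). Sdhb, the iron-sulfur subunit of succinate dehydrogenase, was at 198 to 636 CPM (median 280.4) against 142 to 207 CPM (median 182) (log2 fold change 0.88 ± 0.25, adjusted p = 0.0121). The ranges of Sdhb overlapped, and the list count was 4 without melanoma 1 and lung 8 and 10, where Sdhb was not called. Of 24 glycolysis genes 7 rose and 3 fell, with Eno1 at 267 to 592 CPM (median 398) against 193 to 231 CPM (median 205) (log2 fold change 0.96 ± 0.16, adjusted p = 0.000161), with 1 risen gene without those 3 libraries and 4 without melanoma 1, melanoma 2 or lung 13. Of 37 complex I genes 1 rose and none fell. Other metabolic lists held more falls, beside 14.7% fallen over all genes. Of 31 genes of lipid transport and storage 14 fell (45.2%) and 3 rose. Of 50 NRF2 and glutathione genes 15 fell (30.0%) and 6 rose. The fallen count was 25 without the libraries poor in long transcripts and 10 without melanoma 4 or lung 7. Of 57 cytochrome, glucuronosyltransferase and aldehyde dehydrogenase genes 14 fell (24.6%, or 8 genes without melanoma 4) and 6 rose.

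Cholesterol synthesis genes rose in 8 of 24 cases with none falling. Insig1, a sterol sensor that holds back SREBP, was at 99.97 to 219 CPM (median 163) against 72.6 to 88.5 CPM (median 79.7) (log2 fold change 0.98 ± 0.17, adjusted p = 0.000146), and Lss, lanosterol synthase, at 47.1 to 123.2 CPM (median 64.4) against 30.7 to 47.6 CPM (median 40.9) (log2 fold change 0.93 ± 0.20, adjusted p = 0.00153). Among 26 genes of the unfolded protein response 8 rose and only Ern1 fell. Hyou1, a chaperone of the endoplasmic reticulum, was at 184 to 297 CPM (median 244) against 137 to 157 CPM (median 142) (log2 fold change 0.75 ± 0.11, adjusted p = 4.71e-05), and Canx, calnexin, at 542 to 846 CPM (median 686) against 416 to 514 CPM (median 464) (log2 fold change 0.57 ± 0.12, adjusted p = 0.00095). In breast libraries both were as high as in melanoma, with medians of 247 and 744 CPM. Of 38 aminoacyl-tRNA synthetases 8 rose and none fell. These changes were under 2-fold for the genes named in this paragraph.

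Replication genes rose in 13 of 33 cases, and this count depended on single libraries. Uhrf1, which guides DNA methylation to new strands, was at 17.9 to 92.5 CPM (median 47.2) against 10.6 to 20.8 CPM (median 17.9) (log2 fold change 1.59 ± 0.31, adjusted p = 0.000703), and Cdc6, which loads the replicative helicase, at 5.201 to 25.7 CPM (median 15.1) against 3.65 to 7.77 CPM (median 5.81) (log2 fold change 1.34 ± 0.32, adjusted p = 0.00404). The mean level of the list stood high in melanoma 1, 2 and 3 (0.91, 0.75 and 1.01 log2 units above the mean of the 12) and low in melanoma 4, 5 and 6 (-0.08, -0.50 and -0.73). The 5 melanocyte markers held 1.43, 1.30 and 2.16% of the counts in melanoma 1, 2 and 3. In melanoma 4, 5 and 6 they held 0.676, 0.423 and 0.339%, and a link between pigment and replication genes was not tested. The count was 6 without melanoma 1, 7 without melanoma 2, 20 without melanoma 6, 8 without lung 8 and 2 without melanoma 1 and lung 8 and 10, where Cdc6 was not called. Of 32 mitosis genes 2 rose (none without melanoma 1 or 2, 7 to 12 without melanoma 4, 5 or 6 and 1 without lung 7, 10 or 11).

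Single abundant genes rose outside these lists too. Ptgds, the lipocalin-type prostaglandin D synthase of the meninges, was at 679 to 1207 CPM (median 777) against 357 to 596 CPM (median 410.2) (log2 fold change 1.02 ± 0.20, adjusted p = 0.000581). Lta4h, which makes leukotriene B4, was at 88.2 to 258 CPM (median 159) against 50.8 to 60.7 CPM (median 54.5) (log2 fold change 1.54 ± 0.20, adjusted p = 9.19e-06). Ptgds and Lta4h were the 2 members of 26 eicosanoid genes that rose. The imprinted genes Plagl1 and Igf2r were at 45.3 to 105 CPM (median 59.6) against 7.26 to 17.4 CPM (median 11.3) (log2 fold change 2.49 ± 0.32, adjusted p = 6.31e-06) and at 60.5 to 143 CPM (median 85.7) against 19.8 to 39.7 CPM (median 27.6) (log2 fold change 1.71 ± 0.26, adjusted p = 5.96e-05). Tfrc, the transferrin receptor, was at 153 to 411 CPM (median 201) against 103.9 to 142 CPM (median 117) (log2 fold change 1.01 ± 0.19, adjusted p = 0.000598). None of these 5 genes had overlapping groups.

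**Figure D2:**
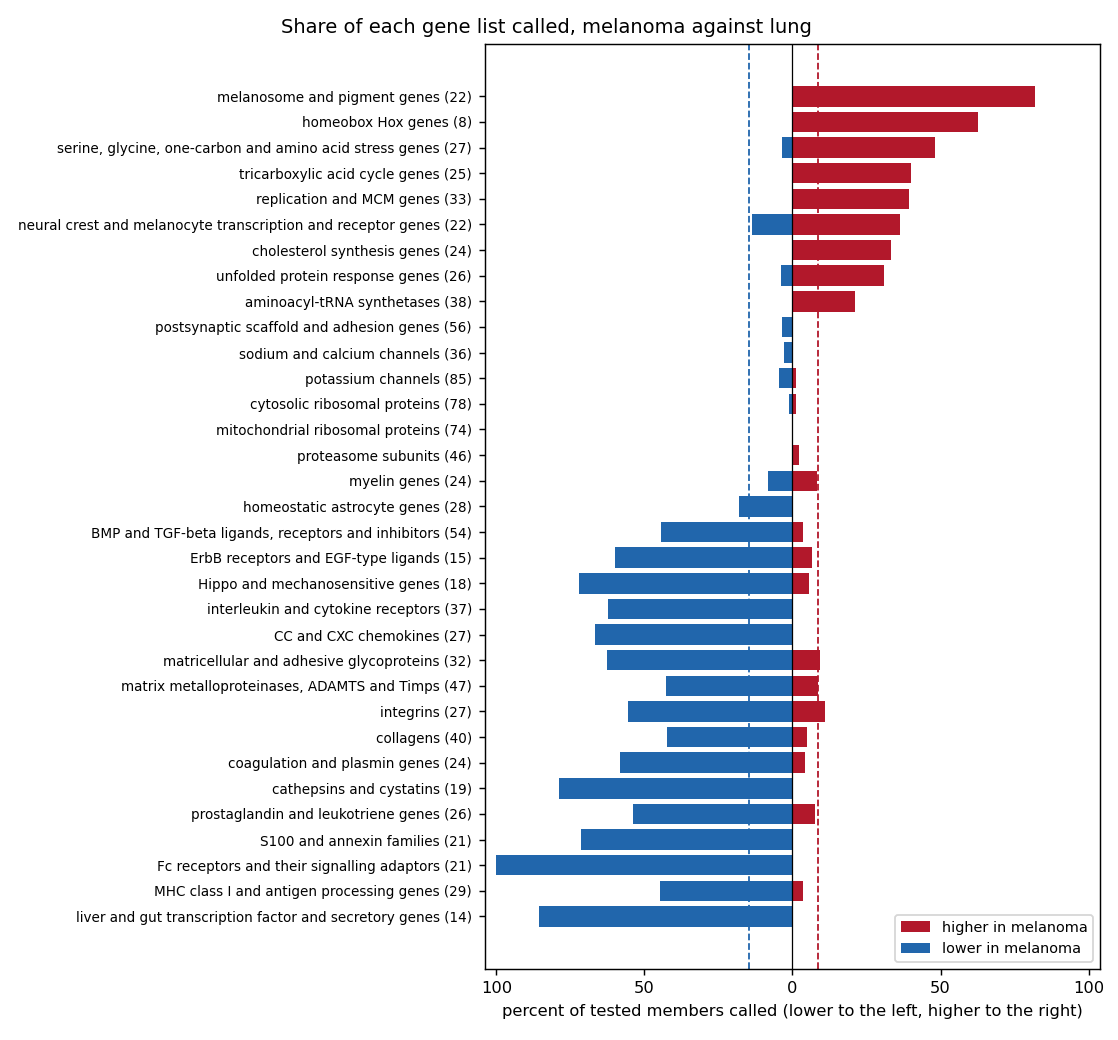
Share of the tested members of 33 gene lists that were called, with the number tested in brackets. Red bars to the right give the percent higher and blue bars to the left the percent lower in melanoma, and dashed lines mark 8.51% and 14.7%, the shares over all genes. Pigment genes (18 of 22) and Fc receptor genes (21 of 21) mark the ends, and ion channels and ribosomal proteins lie inside both lines.

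Of 54 genes of the BMP and TGF-beta family 24 fell (44.4%, against 14.7% of all genes) and 2 rose. Inhba, the activin A subunit, was at 1.49 to 15.2 CPM (median 6.74) against 282 to 432 CPM (median 385) (log2 fold change -5.65 ± 0.42, adjusted p = 6.28e-09). Bmp2, a bone morphogenetic protein, was at 2.59 to 5.61 CPM (median 3.74) against 66.4 to 108 CPM (median 100.04) (log2 fold change -4.56 ± 0.18, adjusted p = 3.43e-12), and Ltbp1, which stores latent TGF-beta in the matrix, at 1.72 to 6.77 CPM (median 4.81) against 75.6 to 144 CPM (median 105) (log2 fold change -4.59 ± 0.27, adjusted p = 2.35e-10). Id3, an inhibitor of helix-loop-helix factors and a known target gene of the family, was at 21.5 to 35.3 CPM (median 29.3) against 169.5 to 335 CPM (median 235) (log2 fold change -3.09 ± 0.19, adjusted p = 6.39e-10). Whether its level depends on these ligands was not tested. For all 4 every melanoma library lay below every lung library. In breast libraries Bmp2 stood at 3.69 to 5.12 CPM (median 4.45) and Inhba at 9.28 to 30.1 CPM (median 15.1). Id3 stood at 46.1 to 74.9 CPM (median 50.5) there, so the lung model was the high one of the 3 models in these values.

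Of 15 ErbB receptors, EGF-type ligands and inhibitors 9 fell and 1, Erbb3, rose, and the call of Erbb3 was lost without melanoma 1 or 2 or lung 7, 9 or 13. Ereg, epiregulin, had 1 read in the 6 melanoma libraries, in melanoma 5, against 12.5 to 31.8 CPM (median 22.8) in lung, a ratio of 1696 (95% exact interval 304 to 67012, counting error only). Hbegf was at 12.9 to 15.3 CPM (median 14.1) against 42.9 to 90.9 CPM (median 56.4) (log2 fold change -2.08 ± 0.16, adjusted p = 7.86e-09) and Btc, betacellulin, at 0.248 to 0.705 CPM (median 0.512) against 4.32 to 12.7 CPM (median 6.84) (log2 fold change -3.91 ± 0.31, adjusted p = 1.14e-08). Fosl1, an AP-1 subunit induced by ERK signalling, stood at 0 to 0.956 CPM (median 0.139) against 14.1 to 29.6 CPM (median 20.5) (log2 fold change -5.96 ± 0.42, adjusted p = 2.88e-09) and was higher still in breast libraries (71.4 to 122 CPM (median 88.6)). Dusp5, a phosphatase of ERK, was at 4.86 to 9.76 CPM (median 5.31) against 28.6 to 82.3 CPM (median 41.6) (log2 fold change -2.99 ± 0.23, adjusted p = 1.09e-08). Without melanoma 1 the log2 fold change of Fosl1 was -6.74. Of 20 MAP kinase feedback genes 9 fell and 2 rose. The fallen count was 6 without melanoma 2, melanoma 4, lung 7 or lung 9. The risen count was 0 without melanoma 1 and lung 8 and 10.

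Single genes of other signalling families fell as well. Pthlh, parathyroid hormone-like hormone, was at 1.02 to 2.64 CPM (median 1.90) against 74.4 to 136 CPM (median 107) (log2 fold change -5.81 ± 0.27, adjusted p = 1.1e-11), and Tnfrsf11b, the decoy receptor osteoprotegerin, at 3.801 to 7.05 CPM (median 4.83) against 70.4 to 137 CPM (median 115) (log2 fold change -4.39 ± 0.21, adjusted p = 1.61e-11). Both genes act in bone turnover. Il11 was at 0.548 to 1.49 CPM (median 0.835) against 12.4 to 30.9 CPM (median 20.6) (log2 fold change -4.46 ± 0.44, adjusted p = 2.74e-07), and Socs2, a feedback inhibitor of JAK and STAT signalling, at 9.17 to 15.6 CPM (median 10.8) against 42.9 to 66.5 CPM (median 51.0) (log2 fold change -2.21 ± 0.16, adjusted p = 3.61e-09). Of 26 genes of that pathway 13 fell and 3 rose, or 15 and 1 without melanoma 1 and lung 8 and 10. Jag1, a Notch ligand, was at 2.98 to 6.55 CPM (median 5.85) against 46.4 to 65.7 CPM (median 58.9) (log2 fold change -3.37 ± 0.20, adjusted p = 2.8e-10), and Lgr6, an R-spondin receptor of Wnt signalling, at 1.41 to 6.93 CPM (median 4.75) against 99.2 to 152 CPM (median 128) (log2 fold change -4.80 ± 0.29, adjusted p = 3.12e-10). Of 24 Notch pathway genes 8 fell (33.3%, against 14.7% of all genes) and none rose. Of 53 Wnt genes 16 fell (30.2%) and 5 rose (9.43%, near the 8.51% of all genes), with a median log2 fold change of -0.0825. The risen Wnt genes were 2 or 3 without melanoma 1, 2 or 6 or lung 7, 9, 11 or 13.

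Growth factor and vascular genes held further falls. Angptl4, which inhibits lipoprotein lipase, was at 2.32 to 9.72 CPM (median 3.37) against 44.7 to 123.96 CPM (median 75.2) (log2 fold change -4.18 ± 0.32, adjusted p = 7.21e-09), and Pdgfc at 5.15 to 8.59 CPM (median 7.19) against 27.4 to 44.9 CPM (median 33.8) (log2 fold change -2.28 ± 0.16, adjusted p = 2.88e-09). Epha2, an ephrin receptor of epithelia, was at 1.25 to 2.94 CPM (median 2.04) against 50.5 to 89.04 CPM (median 72.9) (log2 fold change -5.12 ± 0.22, adjusted p = 5.43e-12), with breast libraries at the lung level (53.6 to 100.4 CPM (median 72.1)). In contrast Epha3 rose, at 28.8 to 69.3 CPM (median 55.2) against 2.78 to 8.85 CPM (median 5.93) (log2 fold change 3.16 ± 0.26, adjusted p = 2e-08). Of 22 Eph receptors and ephrins 4 fell and 1 rose, near the share of all genes. Among 18 genes of the Hippo pathway and its mechanosensitive targets 13 fell and only Amotl1 rose. Ankrd1, a YAP target, was at 0 to 0.147 CPM (median 0.0392) against 27.1 to 65.6 CPM (median 37.3) (log2 fold change -9.31 ± 0.45, adjusted p = 1.69e-11), and the secreted targets Ccn1 and Ccn2 at 6.27 to 11.5 CPM (median 8.64) against 86.4 to 205 CPM (median 118) and at 18.6 to 34.9 CPM (median 25.1) against 107 to 188 CPM (median 135) (log2 fold changes -3.88 ± 0.25 and -2.45 ± 0.18).

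**Figure D3:**
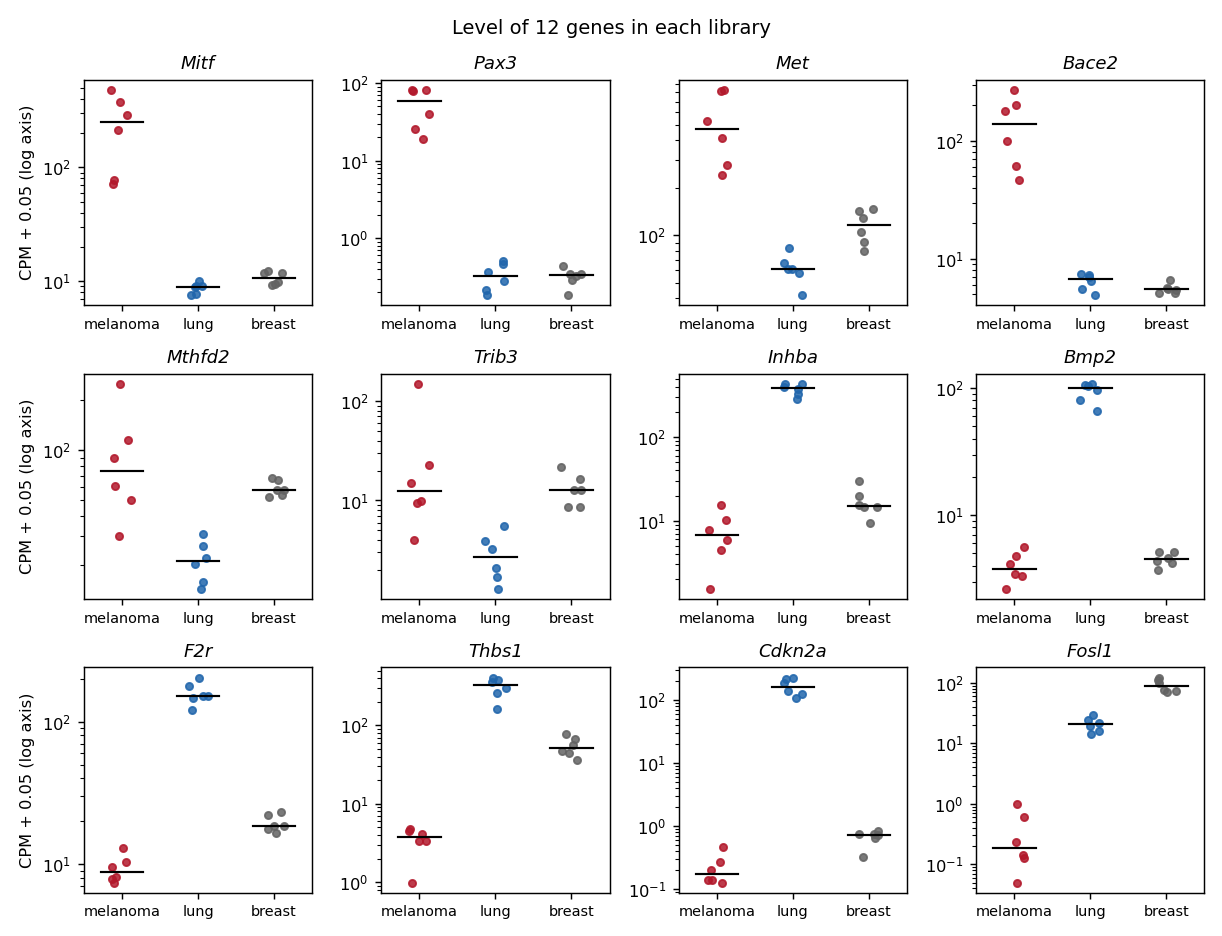
CPM of 12 genes in each library on log axes, with a small constant added so that 0 can be drawn. Points are libraries (6 per model), lines are medians and each panel has its own scale. Mitf, Pax3, Met and Bace2 lie higher and Inhba, Bmp2, F2r, Thbs1, Cdkn2a and Fosl1 lower in every melanoma than in every lung library, while Mthfd2 and Trib3 overlap.

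Matrix, protease and clotting genes fell in large part, and several of their promoters hold AP-1 letters. The sequence TGANTCA, the site of AP-1 dimers, was found within 250 bases before the start in 10 of the 54 falling genes given here with values that have a promoter entry. It was found in 14.5% of the promoters of all genes that fell over 4-fold, in 10.1% of those that rose over 4-fold and in 5.78% of all promoters. F2r and Serpinb2, described below, are also among the 10 and are not shown. Stretches of 60 bases are given for 4 of the 10, with the site in capitals. They come from RefSeq on GRCm38.p6, on the plus strand for Mmp13 (chr9:7272453-7272512), Mmp10 (chr9:7502253-7502312) and Plaur (chr7:24462388-24462447) and on the minus strand for Ecm1 (chr3:95739600-95739659).
Mmp13: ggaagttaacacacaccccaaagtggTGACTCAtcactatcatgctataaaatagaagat
Mmp10: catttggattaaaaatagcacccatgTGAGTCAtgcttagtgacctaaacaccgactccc
Plaur: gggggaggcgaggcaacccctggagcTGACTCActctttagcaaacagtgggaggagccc
Ecm1: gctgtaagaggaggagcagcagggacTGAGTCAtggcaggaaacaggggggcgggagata
The core of the interferon response element, GAAANNGAA, was found in 15.5% of the promoters of genes that fell over 4-fold, in 6.98% of those that rose over 4-fold and in 7.73% of all. The CRE TGACGTCA was found in 1.49%, 1.55% and 2.88%. These shares are given as descriptions of the windows and were not tested.

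Mmp13, a collagenase, was at 0 to 0.662 CPM (median 0.232) against 12.2 to 132 CPM (median 52.99) (log2 fold change -7.94 ± 0.74, adjusted p = 1.17e-07), and Mmp10, stromelysin 2, at 0 to 0.156 CPM (median 0.0413) against 1.83 to 3.797 CPM (median 3.41) (log2 fold change -5.62 ± 0.47, adjusted p = 2.76e-08). Mmp10 stood highest in breast libraries, at 25.6 to 76.3 CPM (median 45.8). Of 47 metalloproteinases, ADAMTS proteases and Timps 20 fell, and the 4 that rose were Reck, Adamts20, Adamts1 and Adamts4. Plaur, the urokinase receptor, was at 1.21 to 7.37 CPM (median 2.80) against 37.2 to 114 CPM (median 65.5) (log2 fold change -4.48 ± 0.39, adjusted p = 4.94e-08). F2r, the thrombin receptor PAR1, was at 7.41 to 13.1 CPM (median 8.82) against 119.9 to 203 CPM (median 152) (log2 fold change -4.08 ± 0.17, adjusted p = 3.43e-12). Of 24 coagulation and plasmin genes 14 fell and 1, the tissue factor inhibitor Tfpi, rose. Serpinb2, an intracellular plasminogen activator inhibitor, was at 0 to 0.221 CPM (median 0.0390) against 15.9 to 52.0 CPM (median 24.4) (log2 fold change -8.53 ± 0.51, adjusted p = 2.93e-10), and 13 of 21 serpins fell. Without melanoma 1 the log2 fold changes were -9.37 for Serpinb2 and -8.53 for Mmp13.

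Thbs1, thrombospondin 1, was at 0.940 to 4.73 CPM (median 3.73) against 163 to 407 CPM (median 329.7) (log2 fold change -6.49 ± 0.35, adjusted p = 6.98e-11). Fbln2, a basement membrane fibulin, was at 2.43 to 6.21 CPM (median 4.74) against 100.2 to 199 CPM (median 143) (log2 fold change -5.00 ± 0.27, adjusted p = 8.75e-11), while its relative Fbln5, of elastic fibres, rose, at 68.7 to 341 CPM (median 157) against 15.03 to 29.2 CPM (median 20.1) (log2 fold change 3.07 ± 0.35, adjusted p = 1.53e-06). Matricellular glycoproteins fell in 20 of 32 cases and rose in 3, Fbln5, Emilin1 and Fbln1. Ecm1 was at 5.09 to 10.3 CPM (median 6.44) against 82.0 to 161 CPM (median 111) (log2 fold change -4.06 ± 0.21, adjusted p = 5.82e-11), and Bgn, the proteoglycan biglycan, at 7.05 to 18.96 CPM (median 16.8) against 188 to 301 CPM (median 245) (log2 fold change -3.99 ± 0.24, adjusted p = 4.09e-10). Of 40 collagens 17 fell and 2, Col10a1 and Col4a4, rose. Col6a2 was at 9.01 to 13.5 CPM (median 11.2) against 78.1 to 135 CPM (median 107) (log2 fold change -3.24 ± 0.16, adjusted p = 3.06e-11) and Col5a1 at 6.74 to 11.8 CPM (median 9.88) against 72.4 to 100.2 CPM (median 83.8) (log2 fold change -3.14 ± 0.18, adjusted p = 2.18e-10). Loxl4, which cross-links collagen, was at 0.0927 to 0.578 CPM (median 0.156) against 7.10 to 13 CPM (median 9.75) (log2 fold change -5.15 ± 0.34, adjusted p = 1.28e-09).

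Receptors for matrix followed. Itga6, a laminin-binding integrin, was at 26.6 to 34.2 CPM (median 32.5) against 137 to 215 CPM (median 192) (log2 fold change -2.54 ± 0.13, adjusted p = 5.52e-11), and its ligand chain Lamb3 at 1.79 to 3.76 CPM (median 3.28) against 73.1 to 119.6 CPM (median 106) (log2 fold change -5.08 ± 0.22, adjusted p = 5.43e-12). Itga2, a collagen-binding integrin, was at 0.372 to 1.76 CPM (median 0.551) against 8.96 to 32.8 CPM (median 16.7) (log2 fold change -4.71 ± 0.40, adjusted p = 4.04e-08). Of 27 genes with integrin symbols 15 fell and 3 rose, and of these Itgb3bp encodes a centromere protein and no integrin. Itga9, a tenascin-binding integrin, was one of the 2 integrins that rose, at 30.4 to 68.5 CPM (median 43.4) against 6.65 to 12.5 CPM (median 8.86) (log2 fold change 2.39 ± 0.26, adjusted p = 7.06e-07).

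Calcium-binding and membrane repair proteins were among the most abundant genes that fell. S100a6, calcyclin, was at 11.5 to 24.0 CPM (median 15.3) against 590.1 to 1811 CPM (median 977) (log2 fold change -6.06 ± 0.39, adjusted p = 9.54e-10), and Anxa2, annexin A2, at 43.4 to 145 CPM (median 88.3) against 516 to 1213 CPM (median 755) (log2 fold change -3.19 ± 0.32, adjusted p = 3.54e-07). Anxa8 was at 0.515 to 1.67 CPM (median 0.742) against 86.5 to 176 CPM (median 106) (log2 fold change -7.05 ± 0.30, adjusted p = 5.43e-12). Of the 21 tested S100 proteins and annexins 15 fell (71.4%) and none rose. Emp1, an epithelial membrane protein, was at 5.86 to 23.3 CPM (median 12.3) against 214 to 754 CPM (median 439) (log2 fold change -5.16 ± 0.38, adjusted p = 5.69e-09), Myof, the membrane repair protein myoferlin, at 8.34 to 19.5 CPM (median 12.3) against 139 to 229 CPM (median 224) (log2 fold change -3.99 ± 0.26, adjusted p = 8.06e-10), and Vim, the intermediate filament vimentin, at 180.1 to 607 CPM (median 409) against 1986 to 3802 CPM (median 2685) (log2 fold change -2.81 ± 0.31, adjusted p = 1.02e-06). Tmsb4x, which binds actin monomers, was at 557 to 955 CPM (median 640.3) against 1378 to 3563 CPM (median 2454) (log2 fold change -1.84 ± 0.23, adjusted p = 5.23e-06). Breast libraries lay near the lung level for S100a6 (318 to 1232 CPM (median 561)) and Emp1 (201 to 543 CPM (median 343)).

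Eicosanoid genes fell in 14 of 26 cases. Ptges, prostaglandin E synthase, was at 3.13 to 4.45 CPM (median 3.89) against 37.8 to 76.1 CPM (median 52.4) (log2 fold change -3.83 ± 0.17, adjusted p = 1.03e-11), and Pla2g4a, the phospholipase that frees arachidonic acid, at 7.76 to 22.02 CPM (median 12.3) against 74.8 to 127 CPM (median 105) (log2 fold change -2.92 ± 0.26, adjusted p = 6.65e-08). Water and ion channels of epithelia showed wider gaps. Ano1, a calcium-activated chloride channel, was at 2.59 to 7.18 CPM (median 5.06) against 116 to 158 CPM (median 140.1) (log2 fold change -4.80 ± 0.19, adjusted p = 3.43e-12), and Aqp5, a water channel of glands and airways, at 0.0784 to 0.368 CPM (median 0.186) against 63.4 to 113 CPM (median 84.1) (log2 fold change -8.64 ± 0.37, adjusted p = 5.48e-12). Of 6 aquaporins 5 fell, the others being Aqp3, Aqp1, Aqp9 and the astrocyte channel Aqp4. In the other direction Gjb2, a connexin of gap junctions, rose, at 33.8 to 126 CPM (median 58.7) against 8.79 to 11.8 CPM (median 9.42) (log2 fold change 2.73 ± 0.27, adjusted p = 2.95e-07). Kcnj13, a potassium channel of the choroid plexus and retinal pigment epithelium, rose as well, at 20.5 to 105 CPM (median 22.6) against 1.42 to 5.06 CPM (median 2.87) (log2 fold change 3.55 ± 0.43, adjusted p = 3.37e-06), or 2.91 on the log2 scale without melanoma 1.

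Of 18 genes of epithelial adhesion, mucins and identity 11 fell and none rose. Krt19, a simple-epithelial keratin, was at 0.0826 to 0.368 CPM (median 0.124) against 47.4 to 144 CPM (median 85.2) (log2 fold change -8.93 ± 0.39, adjusted p = 7.82e-12), and Foxa1, a pioneer factor of endoderm, at 0.330 to 2.03 CPM (median 0.872) against 18.2 to 27.9 CPM (median 21.3) (log2 fold change -4.38 ± 0.31, adjusted p = 2.46e-09). Of 14 transcription factors and secretory genes of liver and gut 12 fell (85.7%), whereas of 10 lung epithelial genes 3 fell. Cldn6, a claudin of embryonic epithelia, had 3 melanoma reads, in melanoma 2 and 5, against 8.38 to 30.1 CPM (median 25.8) in lung (ratio 569, 95% exact interval 194 to 2763). Wfdc2, a secreted epithelial protease inhibitor, was at 0.441 to 1.24 CPM (median 0.9746) against 13.4 to 64.6 CPM (median 43.2) (log2 fold change -5.48 ± 0.48, adjusted p = 5.97e-08). Neither Krt19 nor Cldn6 was read above 0.5 CPM in any breast library, at 0 to 0.280 CPM (median 0.108) and 0 to 0.0749 CPM (median 0). Wfdc2, in contrast, was at 15.4 to 96.2 CPM (median 40.6) there, and the 5 markers of simple epithelium summed to 66.2 to 167 CPM, between the other models.

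The widest gap among cell cycle genes lay at the Cdkn2 locus. Cdkn2a, which encodes the inhibitors INK4A and ARF, was at 0.0784 to 0.413 CPM (median 0.124) against 109 to 229 CPM (median 162) (log2 fold change -9.80 ± 0.32, adjusted p = 1.91e-13), and its neighbour Cdkn2b at 0.330 to 1.11 CPM (median 0.684) against 40.2 to 72.6 CPM (median 54.8) (log2 fold change -6.35 ± 0.26, adjusted p = 4.07e-12). In breast libraries both stayed low, at 0.273 to 0.789 CPM (median 0.686) and 0.867 to 1.65 CPM (median 1.41). Twist1, a mesenchymal transcription factor, was at 0.368 to 1.21 CPM (median 0.603) against 14.9 to 33.6 CPM (median 25.3) (log2 fold change -5.17 ± 0.33, adjusted p = 6.78e-10). Breast libraries had 23.1 to 60.7 CPM (median 45.6) of Twist1, so that for this gene melanoma was the low model. The unnamed gene 2310007B03Rik was at 0 to 0.0927 CPM (median 0.0757) against 56.2 to 103.8 CPM (median 75.8) (log2 fold change -10.17 ± 0.32, adjusted p = 1.91e-13), and Qrfp, a neuropeptide precursor, at 0.0784 to 0.368 CPM (median 0.249) against 43.5 to 108 CPM (median 55.7) (log2 fold change -7.91 ± 0.31, adjusted p = 3.16e-12). Atoh8, a helix-loop-helix factor, was at 0.662 to 1.57 CPM (median 1.17) against 22.2 to 43.8 CPM (median 33.0) (log2 fold change -4.84 ± 0.22, adjusted p = 8.9e-12).

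Innate immune receptor genes fell in shares that differed between families. All 21 tested Fc receptor genes and adaptors fell, and so did 15 of 29 C-type lectins and collectins (51.7%), 25 of 26 genes of the CD300, PIR, LILR, Siglec and SIRP receptors and 8 of 9 MS4A genes. Fcgr3, a low-affinity IgG receptor, was at 10.9 to 25.3 CPM (median 15.1) against 62.9 to 229 CPM (median 126) (log2 fold change -2.97 ± 0.31, adjusted p = 4.92e-07), and Tyrobp, the adaptor DAP12, at 13.96 to 25.8 CPM (median 16.5) against 54.3 to 149.7 CPM (median 109) (log2 fold change -2.53 ± 0.25, adjusted p = 2.56e-07). Clec4n, the lectin receptor dectin 2, was at 0.165 to 2.4998 CPM (median 0.335) against 14.3 to 54.6 CPM (median 27.0) (log2 fold change -5.50 ± 0.53, adjusted p = 2.11e-07), or -6.67 on the log2 scale without melanoma 1. Microglial markers were lower in the same libraries, as given above, and their part in these falls was not tested. Of 41 Toll-like, NOD-like and RIG-like sensors 25 fell and none rose, with Aim2, a sensor of cytosolic DNA, at 1.95 to 4.26 CPM (median 2.89) against 13.8 to 30.7 CPM (median 22.7) (log2 fold change -2.88 ± 0.25, adjusted p = 4.78e-08) and Tlr7, a sensor of single-stranded RNA, at 3.35 to 5.07 CPM (median 4.12) against 11.7 to 24.9 CPM (median 15.5) (log2 fold change -2.04 ± 0.20, adjusted p = 2.41e-07). Ctss, the protease cathepsin S, was at 75.3 to 163 CPM (median 89.8) against 289 to 867 CPM (median 634) (log2 fold change -2.56 ± 0.29, adjusted p = 1.39e-06), one of 15 of 19 cathepsins and cystatins that fell. Cst3, cystatin C, fell less, from 1371 to 1971 CPM (median 1776) in lung to 897 to 1188 CPM (median 1031) in melanoma (log2 fold change -0.72 ± 0.14, adjusted p = 0.000564). Breast medians were 112 CPM for Tyrobp, 95.4 for Fcgr3, 27.1 for Clec4n, 43.2 for Aim2, 23.1 for Tlr7 and 687 for Ctss. For these genes melanoma was the low model of the 3, while Cst3 had a breast median of 1385 CPM, between the others. P2ry12, Tmem119 and Csf1r summed to 190 to 480 CPM in breast libraries. Over the fits without 1 library, 24 to 30 sensors and 14 to 18 C-type lectins and collectins fell, the most without melanoma 1.

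Chemokines fell in 18 of 27 cases and their receptors in 10 of 13, with none higher. Cxcl5, which draws neutrophils, was at 0.784 to 2.04 CPM (median 1.41) against 8.55 to 107 CPM (median 19.3) (log2 fold change -4.56 ± 0.58, adjusted p = 5.36e-06), Cxcl16 at 2.39 to 12.1 CPM (median 3.48) against 18.01 to 83.4 CPM (median 45.1) (log2 fold change -3.27 ± 0.44, adjusted p = 1.27e-05), and the scavenging receptor Ackr3 at 7.94 to 11.4 CPM (median 8.63) against 39.1 to 87.5 CPM (median 57.0) (log2 fold change -2.72 ± 0.21, adjusted p = 1.02e-08). Without lung 7, the log2 fold change of Cxcl5 was -3.66, and without melanoma 1 and lung 8 and 10 that of Cxcl16 was -4.14. The neutrophil markers S100a8, S100a9, Ly6g and Csf3r summed to 4.21 to 8.09 CPM in melanoma and 24.8 to 187 CPM in lung libraries, with 3 of 4 lower. Of 37 interleukin and cytokine receptors 23 fell, with Il4ra at 7.48 to 16.4 CPM (median 9.05) against 58.6 to 163 CPM (median 102) (log2 fold change -3.47 ± 0.26, adjusted p = 7.97e-09). The count of these receptors was 27 without melanoma 1 and 20 without lung 11. T cell markers overlapped between the models, at 3.51 to 12.9 CPM in melanoma and 4.43 to 14.3 CPM in lung libraries. The count of a wider lymphocyte list depended on single libraries, as given below. Klra4, a receptor of natural killer cells in the Ly49 gene cluster, had 3 melanoma reads, all in melanoma 1, against 38.9 to 82.8 CPM (median 54.6) in lung (ratio 1391, 95% exact interval 476 to 6749). Reads of this gene could be split with its close relatives, and the Ly49 cluster is known to differ between inbred strains.

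Interferon and antigen presentation genes fell by counts that 1 melanoma library set. Of 29 class I and antigen processing genes 13 fell, against 25 without melanoma 1, and of 31 genes of the OAS, IFIT, IFITM and Schlafen families 15 fell, against 25. The class II count was 6 of 12 with and 12 of 12 without that library, the count of interferon-induced GTPases 6 of 11 and 11 of 11. Of 26 T, NK and B lymphocyte genes 7 fell, 17 without melanoma 1, 4 without melanoma 2 and 4 without melanoma 4. The lymphocyte count was 9 without lung 8, 10 without lung 10 and 21 without melanoma 1 and lung 8 and 10. The mean class I level stood at 0.97 log2 units above the mean of the 12 libraries in melanoma 1, where the remaining melanoma libraries lay from -1.40 to -0.80. Lung 8 and 10 stood at -0.36 and -0.34, where the remaining lung libraries lay from 0.89 to 1.95. Gbp2, an interferon-induced GTPase, showed the overlap, at 5.25 to 219.8 CPM (median 13.3) against 19.003 to 1359 CPM (median 525) (log2 fold change -3.74 ± 1.05, adjusted p = 0.013). Its highest melanoma value was in melanoma 1 and its lowest lung values were in lung 8 and 10. Its log2 fold change was -5.65 without melanoma 1 and -6.22 without these 3 libraries. Without them 25 class I genes fell, as without melanoma 1 alone.

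**Figure D4:**
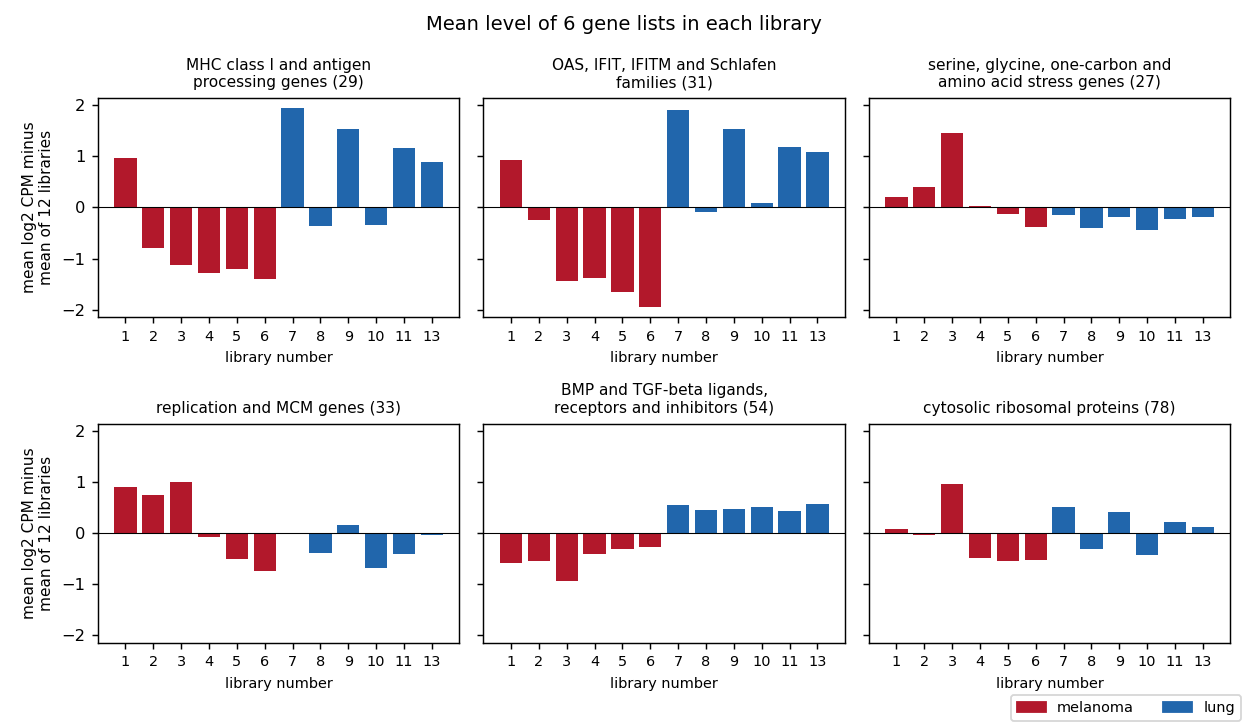
Mean log2 CPM of 6 gene lists in each library, as the difference from the mean of the 12 libraries. Bars are melanoma (red) and lung (blue) libraries by number, with the genes per list in brackets. Melanoma 1 and lung 8 and 10 depart from their models on both immune lists, melanoma 3 on one-carbon and ribosomal genes, and the BMP and TGF-beta list separates all 6 from all 6.

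Lists of neuronal channels, receptors and synaptic genes held few calls. Of 85 potassium channel genes 1 rose and 4 fell, of 36 sodium and calcium channels 1 fell, of 26 glutamate receptor genes 1 rose and of 56 postsynaptic scaffold and adhesion genes 2 fell. All of these shares are below the 8.51% and 14.7% of all genes. The 95% interval lay within 2-fold for 61 of the 85, 25 of the 36, 22 of the 26 and 49 of the 56. Medians were slightly positive, from 0.152 to 0.217 log2 units, against 0.022 over all genes. The median also went with transcript length, from -0.0579 in the 5719 tested genes with the shortest transcripts to 0.108 in the 5718 with the longest. Of these, 5.91% and 10.2% rose. The part of transcript length in the medians of the neuronal lists was not tested. Without the libraries poor in long transcripts, 9 potassium channel genes, 4 glutamate receptor genes and 5 postsynaptic genes rose. In that fit the models were unequal in their change of log2 CPM per doubling of length, as given below. Potassium channels counted 5 risen genes without melanoma 3 alone and 2 without lung 10, and the counts of the other 3 lists moved by at most 2 genes without any single library. In the 7 further neuronal lists (such as GABA receptors, vesicle genes, neuropeptides and axonal transport) 0 to 3 genes rose and 0 to 5 fell in each. Of 30 activity-induced genes 13 fell (43.3%, against 14.7% of all genes) and 1, the orphan receptor gene Nr4a3, rose, at 41.3 to 90.4 CPM (median 60.1) against 7.87 to 22.2 CPM (median 13.02) (log2 fold change 2.06 ± 0.32, adjusted p = 6.95e-05). Many genes of that list are immediate early genes that other cells induce as well. Myelin genes showed 2 rises (Sox10 and Adamts4) and 2 falls (Trf and Cldn11) among 24.

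Genes of protein synthesis and breakdown held few calls, and more in some fits. Of 78 cytosolic ribosomal protein genes 1 rose and 1 fell. Their median log2 fold change was -0.117, beside -0.0579 in the 5719 genes with the shortest transcripts, and the part of length was not tested. Of the 78 genes, 14 fell without melanoma 3 and 0 to 2 without any other single library. With the breast libraries 18 and 19, which are likewise poor in long transcripts, left out too, 30 fell. Of 74 mitochondrial ribosomal protein genes none was called (72 intervals within 2-fold), 2 fell without melanoma 3, and 12 fell without those 3 libraries. Of 46 proteasome genes 1, Psme3, rose and none fell, with 5 falling without melanoma 1 and 2 without lung 8 or 10. The 7 tested genes of the mitochondrial genome held no call.

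Calls were spread unevenly over chromosomes. On chromosome 8, 17 of 859 tested genes rose (1.98%) and 165 fell (19.2%), and on chromosome 19, 22 of 571 rose (3.85%) and 133 fell (23.3%). Chromosome 7 was alike, with 4.43% higher and 18.2% lower. On chromosome 12 the balance was the other way, with 98 of 633 genes higher (15.5%) and 59 lower (9.32%), and chromosome 6 had 13.5% higher and 12.7% lower. Median log2 fold changes were -0.119 on chromosome 8, -0.134 on 19 and 0.138 on 12, so the shifts were small beside those of the genes above. Genes of 1 chromosome share libraries and often regulation, and no test was made of these shares.

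**Figure D5:**
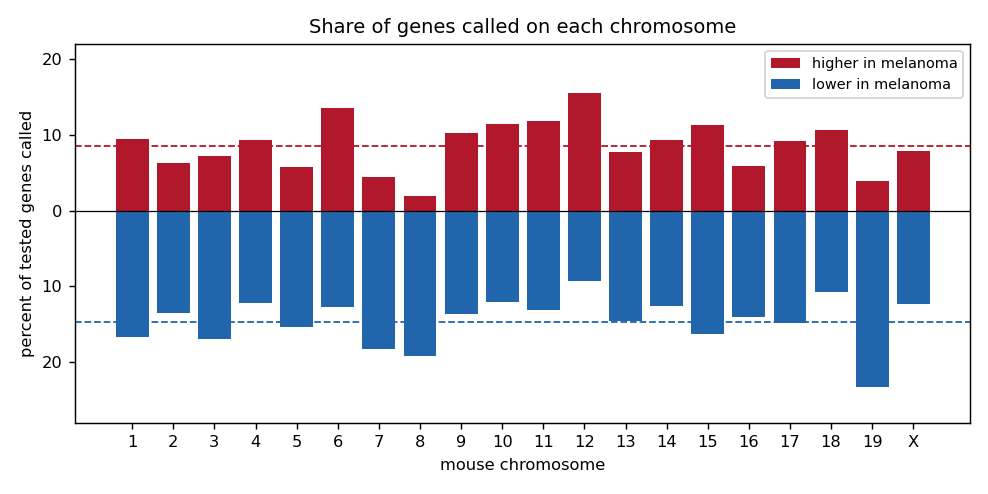
Percent of tested genes called on each mouse chromosome, higher in melanoma upward (red) and lower downward (blue). Dashed lines mark 8.51% and 14.7%, the shares over all genes. Chromosome 8 has 1.98% higher and chromosome 12 has 15.5% higher.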

How the data were processed

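The authors deposited raw counts per mouse Ensembl gene, 1 column per library, with whole-number values and no normalization, and these counts were used. A deposited table of CPM was not used. Poly(A)+ RNA isolated with RNeasy went into directional NEBNext Ultra II libraries, per the labels' protocols. Per the submitters' processing notes, bcl2fastq was used and the build was GRCm39. Aligner, counter, annotation and strand setting are not given in the sources used here. Symbols, transcript lengths and chromosomes came from GENCODE M21 by gene ID (52135 of 55416 IDs, 94.1%).

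The robust quasi-likelihood fit of edgeR 4.0.16, under R 4.3.3, took the counts of all 18 libraries after filterByExpr and TMM scaling. It had 1 coefficient per model, so that 3 models share 1 estimate of the spread. The contrast was melanoma minus lung, p-values were adjusted by Benjamini and Hochberg's method over the 17174 genes tested, and genes were called at an adjusted p under 0.05. Intervals and bounds from few reads cover counting error only. No pair of replicate libraries agreed within sampling noise (smallest chi-square per degree of freedom 2.675, for melanoma 5 and 6), so none was a copy of another and each was counted once. This check cannot show whether 2 libraries came from 1 mouse. The 123 gene lists and the members described were chosen with earlier results of these data known. Named genes were, by rule, the called genes with the largest fold or CPM difference, the called list members with the smallest p or against their list's direction, and called genes with the smallest p in no list, of which a part is described, besides markers and promoter matches. Alternatives were other scalings, filters, DESeq2 1.42.0, limma voom (3.58.1), a fit of 12 libraries, a test against 1.5-fold and left-out libraries. The fit was tested on simulated data. Results for a few genes are not reported here.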

Additional observations from a re-analysis of the deposited data

Results flagged for a closer look

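In 12 of 216 groups of 6 values (the 113 genes given with values, in each model, on log2 CPM, without groups that hold more than 1 library at 0) the highest or lowest library stood far from the other 5 by Dixon's ratio, and chance flags about 1 group in 20. Melanoma 1 was the highest of its group for Kcnj13 (105 CPM), Il4ra (16.4), Itga2 (1.76) and Ctss (163). Melanoma 3 was the lowest for Jag1 (2.98 CPM), Thbs1 (0.94), Bgn (7.05) and Itga6 (26.6), and the highest for Angptl4 (9.72). Lung 10 was the lowest of its group for Mmp10 (1.83 CPM) and Cldn6 (8.38), and lung 11 for Myof (139). These are 4 tissue libraries that hold 12 flags among them, and each named gene remained called when the library was left out.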

How the results depend on the processing

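In 23 alternative fits no called gene became called in the opposite direction. Scaling by other factors gave 3948 to 4112 called genes, the filters 3875 and 4210, DESeq2 4633, limma voom 3953 and the 12 libraries alone 3413. A test against a 1.5-fold change left 1897 genes, 434 higher and 1463 lower. With the 3 libraries poor in long transcripts left out 5845 genes were called, with 2367 higher in place of 1461. In that fit log2 CPM changed per doubling of length by 0.0533 to 0.192 in melanoma and by -0.124 to 0.15 in lung libraries. The models thus remained unequal in this respect, and its part in the added calls was not tested. Leaving out each library gave 3495 to 4623 called genes, 1176 to 1793 higher and 2115 to 2876 lower, with the most called and the most lower without melanoma 3 and the most higher without melanoma 4. Leaving out melanoma 1 and lung 8 and 10, an alternative chosen after seeing the data, gave 3716. Size factors of the relative log expression moved the median of all genes from 0.0216 to 0.0643. Of 113 genes given with values, 106 kept their call in every fit, and Ogdh, Sdhb, Lss, Hyou1, Canx and Cst3 lost it in the test against 1.5-fold, as did Cdc6 and Sdhb without melanoma 1 and lung 8 and 10. In the fit of 12 libraries the counts of risen Hox genes (3), tricarboxylic acid cycle genes (6) and replication genes (8) and of fallen class I genes (7) were lower, and limma voom gave 5 risen replication genes and 12 fallen class II genes. The cause was not tested. No paired analysis was possible because the models share no library number. Depth limits genes under 0.206 to 0.281 CPM, which is 3 counts in a library.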
